A study of Mus musculus with 6 samples.

Results

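The genes described here make up the machinery that copies the chromosomes and then divides the cell. They are 38 genes, listed by symbol for their known roles, out of 31319 in the deposited count table, and all 38 were found there. Of these, 23 act in mitosis and 15 in DNA replication. The tissue was the main olfactory epithelium (MOE), the sheet in the nose where olfactory neurons sit, and its poly(A) RNA was sequenced. The mice were C57BL/6 males, 5 months old. One group of 3 libraries came from miR-200b/a knockdown (KD) mice and the other group of 3 came from the group labelled NC, which the count columns call controls. The labels do not say how the knockdown was made, in which cells it acts or what the NC mice received, and they do not state that each library is a separate mouse, so p-values measure the spread between libraries, which may be technical.

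A cell commits to division when G1 cyclins and their kinases inactivate the retinoblastoma protein and free the E2F factors. E2F then switches on the S phase genes: Cdc6 and Cdt1 load the MCM helicase onto origins, Pcna clamps the polymerases to DNA, and Tyms and ribonucleotide reductase supply the deoxynucleotides. Later, genes with a CHR element in their promoter (the cell cycle genes homology region, bound by the DREAM, MYBL2 and FOXM1 complexes) drive Cdk1, the mitotic cyclins, the spindle and the anaphase machinery. In the olfactory epithelium division goes on throughout life, mainly in globose basal cells, which replace the short-lived sensory neurons, while horizontal basal cells form a mostly resting reserve.

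The 2 microRNAs named in the knockdown label are shown first; their levels were not measured in the count table. The mature sequences are from RefSeq (GRCm38.p6), 5′ to 3′, with the seed, bases 2 to 8, in capitals.
miR-200b-3p, chr4:156055685-156055706, minus strand: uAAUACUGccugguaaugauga
miR-200a-3p, chr4:156054911-156054932, minus strand: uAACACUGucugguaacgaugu
The seeds differ at 1 base, so their target matches are CAGTATT and CAGTGTT. Among the members, 9 held a match in the longest annotated 3′ UTR (GENCODE M21), 5 of 23 mitosis genes (21.7%) and 4 of 15 replication genes (26.7%), against 30.3% of 15821 tested genes with a 3′ UTR. The member UTRs were also shorter, with medians of 606 and 914 bases against 1332. Ccnb1, the cyclin that activates Cdk1 at entry into mitosis, was the only member with a match to both seeds, and Cdk1 itself and Rrm2, the regulated subunit of ribonucleotide reductase, had 1 match each. Their matches are in capitals, with the bases around them.
Ccnb1, from base 601 of the 3′ UTR, miR-200b match: cattttatcaaCAGTATTcctatcagcat
Ccnb1, from base 719, miR-200a match: agtgccctccaCAGTGTTcttaaatgatg
Cdk1, from base 417, miR-200a match: ccacctacggaCAGTGTTtttctacttgt
Rrm2, from base 505, miR-200b match: tttttaatgctCAGTATTatcttgaagtt
The remaining members with a match were Aurkb, Birc5, Cenpf, Ccne2, Mcm4 and Rrm1. A match is only a run of letters, and no binding was measured. The fitted log2 fold changes of KD over NC had a median of 1.03 for the 5 mitosis genes with a match and 0.82 for the 18 without, and of 0.48 for the 4 replication genes with a match and 0.79 for the 11 without.

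The promoters of the mitosis and the replication members differed in the motifs they held. The choice of members did not use these motifs. As described above, though, E2F is known for S phase genes and the CHR for mitotic genes, so this split was foreseen. RefSeq promoters, from 250 bases before to 50 after the start site, were found for 31 members. The motifs searched on both strands were the CHR (TTTGAA or TTCGAA), the CCAAT box bound by NF-Y (CCAAT) and the E2F site (TTTCCCGC, TTTCGCGC, TTTGCCGC or TTTGGCGC). A CHR match was present in 15 of 19 mitosis genes (78.9%) and 2 of 12 replication genes (16.7%), against 17.7% of 12985 tested genes and 21.7% of all 27025 genes in the promoter table. All 15 of those mitosis genes also held a CCAAT box, a pair found in 6.97% of tested genes. An E2F match was present in 6 of 12 replication genes (50%, namely Mcm3, Mcm5, Mcm6, Mcm7, Cdc6 and Cdt1) and 1 of 19 mitosis genes (Cdk1), against 4.03% of tested genes. In 14 mitosis genes the CHR match began 50 bases or less from the start site, a window chosen after the positions were seen, against 4.44% of tested genes and 0 of 12 replication genes.

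Printed here are 4 of these promoters, up to the base before the RefSeq start site, since they show the CHR and E2F patterns side by side: Cdk1 holds all 3 motifs, Ube2c has CCAAT boxes and a CHR, and Mcm6 and Cdc6 have E2F matches and no CHR. Capitals mark every match on either strand, and matches that touch or overlap run together.
Cdk1, chr10:69352913-69353162, minus strand: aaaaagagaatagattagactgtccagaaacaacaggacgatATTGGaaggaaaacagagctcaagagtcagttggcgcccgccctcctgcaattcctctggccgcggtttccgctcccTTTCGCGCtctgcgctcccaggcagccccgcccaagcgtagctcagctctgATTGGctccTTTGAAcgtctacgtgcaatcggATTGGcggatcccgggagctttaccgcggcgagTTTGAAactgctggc
Ube2c, chr2:164769679-164769928, plus strand: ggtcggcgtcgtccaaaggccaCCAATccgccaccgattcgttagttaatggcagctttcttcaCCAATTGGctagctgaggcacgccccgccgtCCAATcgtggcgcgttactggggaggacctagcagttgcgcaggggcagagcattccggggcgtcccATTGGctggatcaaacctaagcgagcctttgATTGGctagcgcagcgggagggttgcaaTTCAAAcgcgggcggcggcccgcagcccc
Mcm6, chr1:128359706-128359955, minus strand: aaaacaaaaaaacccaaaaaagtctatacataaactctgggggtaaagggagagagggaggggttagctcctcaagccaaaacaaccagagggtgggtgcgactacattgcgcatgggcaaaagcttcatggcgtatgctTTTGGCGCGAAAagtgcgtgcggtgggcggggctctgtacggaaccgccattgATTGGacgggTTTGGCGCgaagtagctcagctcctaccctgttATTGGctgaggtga
Cdc6, chr11:98907901-98908150, plus strand: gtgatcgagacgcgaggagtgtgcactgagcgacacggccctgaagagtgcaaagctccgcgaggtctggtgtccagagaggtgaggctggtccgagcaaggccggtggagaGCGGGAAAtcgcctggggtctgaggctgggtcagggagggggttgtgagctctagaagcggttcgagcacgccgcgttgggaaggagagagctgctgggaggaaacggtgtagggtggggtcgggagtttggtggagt
In Cdk1 the CHR matches begin 71 and 15 bases before the start site and the E2F match 131 bases before it. In Mcm6 E2F matches begin 110, 106 and 47 bases before the start. The GENCODE M21 gene of Cdc6 starts at 98907801, before the printed window, so its E2F match lies upstream of the RefSeq start only. The GENCODE M21 genes of Cdk1 and Ube2c start within the printed windows, at 69352938 and 164769898. In both, the CHR match nearest the RefSeq start therefore lies inside the GENCODE gene. In these letters no match says only that the motif searched is not in this window. Median GC content was alike, at 59.7% for mitosis, 57.7% for replication and 59.3% for tested genes. Members with and without a CHR match had nearly the same median log2 fold change, 0.81 (n = 17) and 0.84 (n = 14). With and without an E2F match the medians were 0.97 (n = 7) and 0.82 (n = 24). These differences were not tested.

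**Figure D1:**
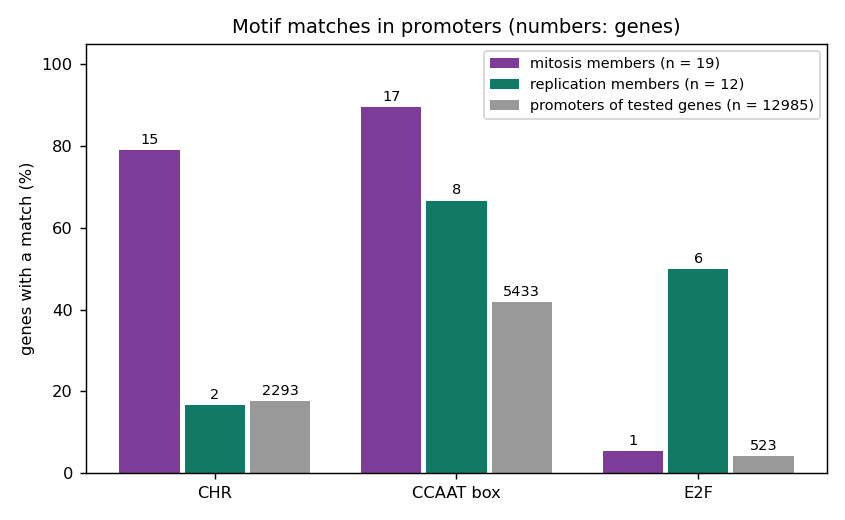
Share of genes (%, bars from 0, number of genes above each bar) with a match to the CHR, the CCAAT box and the E2F site in RefSeq promoters, for mitosis members, replication members and all tested genes with a promoter in the table. CHR matches are frequent in mitosis genes (15 of 19) and E2F matches in replication genes (6 of 12).

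Before the members, the libraries: total counts ran from 15704791 to 17618540, and they differed in the levels of cell type markers. Omp, the marker protein of mature olfactory neurons, had 149 counts in KD-2 against 24302 to 69388 in the other 5 libraries, so this defining marker of the labelled tissue was nearly absent from KD-2. NC-1 stood apart the other way, with the highest sum of mature neuron markers and the lowest sums of horizontal basal, T cell, B cell, plasma cell, macrophage and neutrophil markers. In bulk tissue fewer cells of a type and less RNA per cell cannot be told apart.

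All 38 members had a higher fitted level in KD, by 1.16 to 2.40 times between group means, yet none passed the test. With edgeR's quasi-likelihood test over 18444 genes, 0 of 38 members and 0% of all tested genes had an adjusted p under 0.05, and the members' adjusted p ran from 0.276 to 0.626. The members' log2 fold changes lay between 0.22 and 1.26 with a median of 0.82, where the median of all tested genes was 0.01 and 50.6% of them were above 0. At an unadjusted p under 0.05 there were 19 of 38 members higher in KD against 8.7% of tested genes, and 0 lower against 9.25%. DESeq2 called 0 members (0.819% of tested genes were called higher by it, the smallest member adjusted p being 0.052), and limma-voom called 0. The authors' deposited table gave 22 members an unadjusted p under 0.05 and a positive fold change, against 9.99% of the same tested genes. The 3 KD libraries lay above all 3 NC libraries in 28 of 38 members, against 15.3% of tested genes. They lay below all 3 in 0 members, against 18.6%. This count, and the overlap given for single genes below, rest on TMM factors, which rescale library totals. The factor was 0.83 for KD-2, which raises its levels, and 0.98 to 1.11 for the rest. With plain totals non-overlap was not counted, but some groups would overlap, as in Mki67 (683 counts in KD-2, 763 in NC-3) and Top2a (490 in KD-2, 703 in NC-2).

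**Figure D2:**
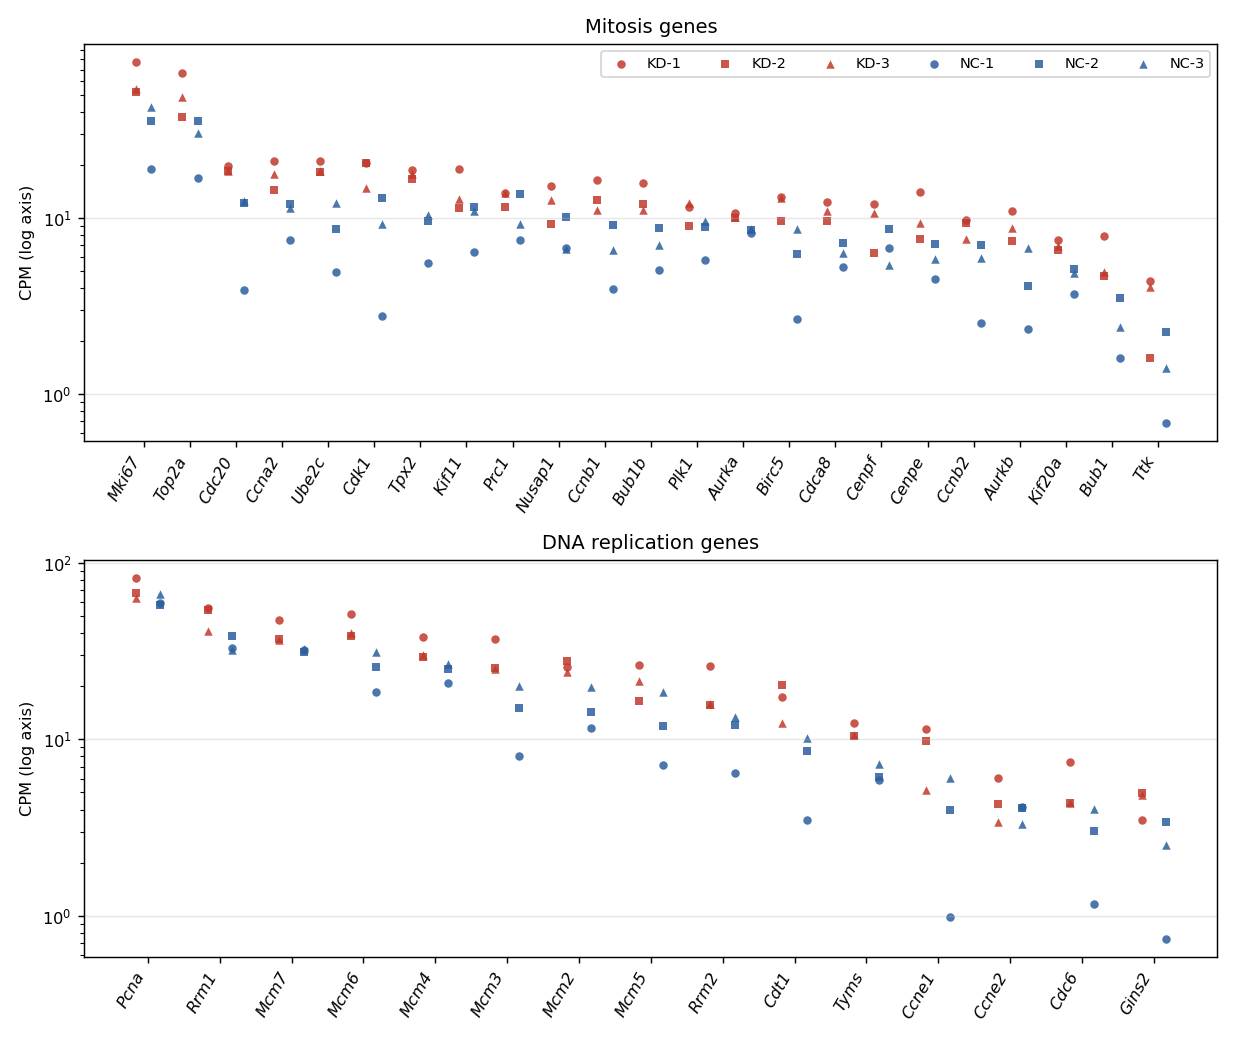
Counts scaled to TMM-normalised library totals (CPM, log axis) of the 23 mitosis genes (top) and 15 replication genes (bottom) in each library. Genes are ordered by mean level, KD is red, NC is blue, and each library number has its own symbol. NC-1 (blue circles) is the lowest library for 32 of 38 genes and KD-1 (red circles) the highest for 34. The share of all tested genes highest in KD-1 was not counted.

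The mitotic cyclins and their kinase come first, as they trigger entry into mitosis. Levels are in CPM, counts scaled to TMM-normalised library totals. Cdk1, the catalytic subunit (chromosome 10, 69335146 to 69352938, GRCm38), stood at 20.7, 20.5 and 14.8 CPM in the KD libraries by number. In the NC libraries it stood at 2.78, 12.9 and 9.25 CPM. The groups did not overlap, and NC-1 was far below the other control libraries. Its log2 fold change was 1.16 (SE 0.53, adjusted p = 0.29), and the ratio of group means fell from 2.25 to 1.68 when NC-1 was left out of the control mean. Ccnb1 (chromosome 13, 100778650 to 100786570) stood at 16.5, 12.7 and 11.1 CPM in KD and 3.95, 9.09 and 6.61 in NC, so that its log2 fold change was 1.03 (SE 0.35). Ccna2, the cyclin of S and G2 phase, stood at 17.8 ± 3.37 against 10.3 ± 2.48 CPM (SD, n = 3 each). Ccnb2 stood at 8.95 ± 1.18 against 5.16 ± 2.34 CPM, but its pseudogene Ccnb2-ps had 75, 20 and 66 counts in KD and 135, 129 and 78 in NC, of the same order as the 168, 123 and 138 and the 41, 137 and 106 counts of Ccnb2. Reads may be split between near-identical copies, so the value of Ccnb2 is uncertain. In all 4 genes the groups did not overlap, against 15.3% of tested genes higher in KD without overlap. NC-1 was lowest in all 4, against 32.5% of tested genes.

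The mitotic kinases and spindle checkpoint genes, which hold chromosomes back until every one is attached, varied more. Bub1, a checkpoint kinase at the kinetochore (chromosome 2, 127801122 to 127831865), stood at 7.94, 4.67 and 4.96 CPM in KD and 1.60, 3.52 and 2.41 in NC, with a log2 fold change of 1.22 (SE 0.40), among the highest of the members. Bub1b, the checkpoint protein BubR1, stood at 12.9 ± 2.47 against 6.95 ± 1.87 CPM. Neither gene's groups overlapped. Ttk, the kinase Mps1, had 75, 21 and 74 counts in KD and 11, 44 and 25 in NC, and here KD-2 lay below NC-2. Aurkb, the kinase of the chromosomal passenger complex, stood at 9.06 ± 1.79 against 4.39 ± 2.21 CPM without overlap. Plk1, a kinase of spindle assembly, stood at 10.9 ± 1.68 against 8.07 ± 2.01 CPM with overlap. Aurka, the centrosome kinase, was the mitosis gene with the smallest difference, 10.6, 9.96 and 10.2 CPM in KD against 8.26, 8.53 and 8.63 in NC. Its libraries were close together within each group and did not overlap between them (log2 fold change 0.28, SE 0.18, adjusted p = 0.38).

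Genes of the passenger complex and of anaphase exit lay higher in KD in all 4 cases without overlap, against 15.3% of tested genes. Ube2c, the ubiquitin-conjugating enzyme of the anaphase-promoting complex (chromosome 2, 164769898 to 164778822), stood at 21.0, 18.4 and 18.4 CPM in KD and 4.93, 8.63 and 12.1 in NC. The KD libraries were close together and well above the highest NC library (log2 fold change 1.17, SE 0.33, adjusted p = 0.28). Cdc20, the activator of that complex, stood at 19.0 ± 0.834 against 9.55 ± 4.91 CPM. Birc5, survivin, stood at 11.9 ± 2.02 against 5.87 ± 3.04 CPM, and Cdca8, borealin, at 10.97 ± 1.40 against 6.28 ± 1.01. The KD libraries of Cdc20 were close to each other, while its NC libraries ran from 3.89 to 12.6 CPM. Cdc20 shares exon bases with Elovl1 on the opposite strand, which had 1302, 1231 and 1246 counts in KD and 642, 1069 and 971 in NC. The effect of the shared bases on Cdc20 was not tested.

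Spindle and kinetochore genes included both the member with the smallest p and several that overlapped. Tpx2, which targets Aurora A to the spindle (chromosome 2, 152847964 to 152895321), stood at 18.7, 16.7 and 17.7 CPM in KD and 5.55, 9.66 and 10.4 in NC. Its groups were well apart (log2 fold change 1.05, SE 0.27, unadjusted p = 0.0074, adjusted p = 0.28, DESeq2 adjusted p = 0.052). Cenpe, a kinetochore motor, stood at 10.4 ± 3.38 against 5.85 ± 1.33 CPM and Kif20a, a motor of cytokinesis, at 7.02 ± 0.477 against 4.58 ± 0.774, both without overlap. The groups overlapped in Kif11 (14.4 ± 4.05 against 9.61 ± 2.78 CPM), the motor that separates the spindle poles, in Prc1 (13.1 ± 1.36 against 10.2 ± 3.15), which bundles midzone microtubules, in Nusap1 (12.4 ± 3.06 against 7.87 ± 1.99) and in Cenpf (9.73 ± 2.997 against 6.95 ± 1.66). The 7 genes had a median log2 fold change of 0.62, against 0.91 for the cyclins with Cdk1, 0.97 for the kinases and 1.002 for the passenger and anaphase genes.

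The 2 genes used most as marks of dividing cells had the highest CPM of the mitosis genes. Mki67, which encodes the antigen Ki-67 that coats mitotic chromosomes (chromosome 7, 135689784 to 135716361), stood at 77.3, 52.3 and 54.2 CPM in KD and 19.1, 35.6 and 42.8 in NC. Its log2 fold change was 0.91 (SE 0.33, adjusted p = 0.28). Top2a, the topoisomerase that untangles chromosomes, stood at 67.0, 37.5 and 48.6 CPM in KD and 16.96, 35.9 and 30.4 in NC, so that KD-2 exceeded NC-2 by a small margin only.

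**Figure D3:**
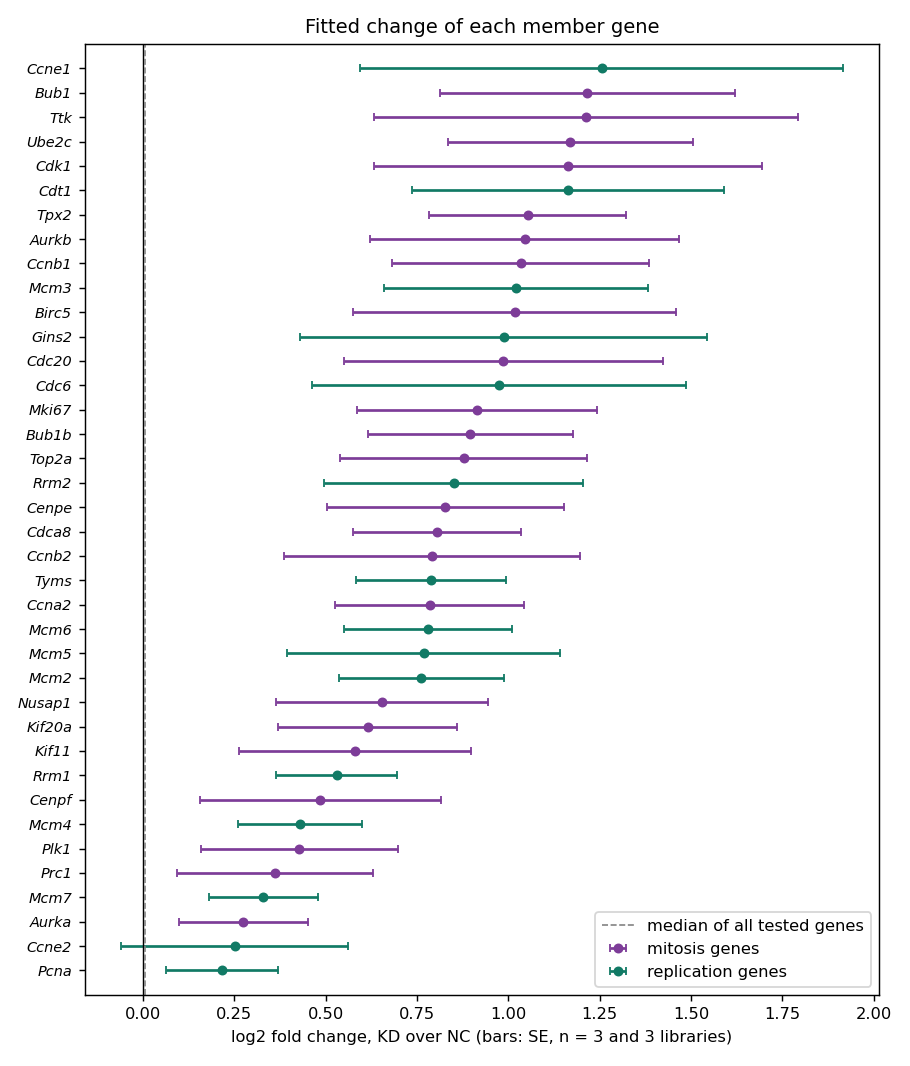
Fitted log2 fold change of KD over NC for each of the 38 members, with bars of 1 SE from edgeR over 3 and 3 libraries, mitosis genes in purple and replication genes in green. All 38 points lie right of 0, from 0.22 for Pcna to 1.26 for Ccne1, and none passed the adjusted threshold.

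Among the replication genes, the 6 subunits of the MCM helicase, which opens the double helix, did not lie equally far from NC. Mcm3 (chromosome 1, 20802968 to 20820312) stood at 37.1, 25.2 and 24.9 CPM in KD and 8.02, 15.0 and 20.0 in NC, with a log2 fold change of 1.02 (SE 0.36). Mcm7 (chromosome 5, 138164583 to 138172422), a subunit of the same ring, stood at 47.4, 36.8 and 36.3 CPM against 32.2, 31.1 and 32.6, a log2 fold change of 0.33 (SE 0.15). Neither pair of groups overlapped, and the NC libraries of Mcm7 were close together, unlike those of Mcm3. Mcm2 (25.9 ± 1.89 against 15.2 ± 4.17 CPM), Mcm4 (32.4 ± 4.69 against 24.1 ± 2.96) and Mcm6 (43.2 ± 6.999 against 25.1 ± 6.34) did not overlap. Mcm5 did (21.3 ± 4.85 against 12.5 ± 5.67), through KD-2 at 16.5 and NC-3 at 18.4. The difference between subunits was not tested. Mcm7 shares exon bases with Ap4m1 and Cops6 on the opposite strand, and the microRNA genes Mir25 and Mir93 lie within it.

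The licensing and replisome genes ranged from Cdt1, among the wider differences, to Pcna, the narrowest. Cdt1, which brings the helicase to origins (chromosome 8, 122568015 to 122573554), stood at 17.4, 20.3 and 12.3 CPM in KD and 3.52, 8.58 and 10.2 in NC. The groups were apart, and its log2 fold change was 1.16 (SE 0.43, adjusted p = 0.28). Cdc6, its partner in loading, had 128, 57 and 79 counts in KD and 19, 59 and 72 in NC, and Gins2, a subunit of the active helicase, had 60, 65 and 88 against 12, 67 and 45. At such counts the separation rested on narrow margins between the nearest libraries, 4.35 against 4.04 CPM for Cdc6 and 3.50 against 3.42 CPM for Gins2. Pcna, the sliding clamp and also a repair factor (chromosome 2, 132249162 to 132253314), stood at 82.0, 67.2 and 62.8 CPM in KD and 58.9, 57.4 and 66.1 in NC. It overlapped, and its log2 fold change of 0.22 (SE 0.15) was the lowest of the 38.

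The S phase cyclins overlapped in both cases. Ccne1, cyclin E1, had the largest fitted difference of all members and also the largest SE. It had 197, 127 and 94 counts in KD and 16, 78 and 108 in NC, and its log2 fold change was 1.26 (SE 0.66, adjusted p = 0.32). NC-3 lay above KD-3, and NC-1 was far below the other libraries. Ccne2, cyclin E2, stood at 4.57 ± 1.32 against 3.84 ± 0.464 CPM, and its log2 fold change was 0.00 (-0.0023) when KD-1 was left out, the single change of sign among the members in any alternative.

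The genes of deoxynucleotide supply were higher in KD without overlap in all 3 cases, against 15.3% of tested genes. Tyms, thymidylate synthase (chromosome 5, 30058202 to 30073617), stood at 12.4, 10.4 and 10.5 CPM in KD and 5.92, 6.13 and 7.23 in NC. No other replication gene had a smaller p (log2 fold change 0.79, SE 0.21, unadjusted p = 0.0081, adjusted p = 0.28, DESeq2 adjusted p = 0.054). Rrm1, the large subunit of ribonucleotide reductase, stood at 49.9 ± 7.82 against 34.6 ± 3.45 CPM and Rrm2 at 19.2 ± 5.95 against 10.6 ± 3.69. Without NC-1 the ratio of means was 1.66 for Tyms (1.73 with it), 1.41 for Rrm1 (1.44 with it) and 1.51 for Rrm2 (1.80 with it).

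Per length, the median replication gene was more abundant than the median mitosis gene. The level per kilobase of annotated exon had a median of 5.31 CPM per kb in KD and 3.13 in NC for replication genes, and of 3.19 and 1.69 for mitosis genes. Pcna was highest, at 29.5 and 25.3 CPM per kb, and Cdc20 led the mitosis genes at 10.1 and 5.11. Cenpf (0.631 and 0.450) and Ttk (0.682 and 0.293) were lowest. Median log2 fold changes were 0.88 for the 23 mitosis genes and 0.78 for the 15 replication genes, with single genes from 0.28 to 1.22 and from 0.22 to 1.26. The difference between these medians was not tested.

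Single libraries set much of the size of the difference. NC-1 was the lowest of the 6 libraries for 32 of 38 members, against 32.5% of tested genes, and KD-1 the highest for 34. The share of tested genes highest in KD-1 was not counted. The median of the members on the log2 scale, set against the mean of the NC libraries, was 1.09, 0.63 and 0.69 in the KD libraries by number, and -0.49, 0.23 and 0.21 in the controls. Without NC-1 the members' median log2 fold change was 0.61, with 15 members at an unadjusted p under 0.05 against 5.78% of tested genes, and the groups did not overlap in 28 of 38 against 17.8% (counts without libraries were added after seeing the data). Without KD-1 the median was 0.68 and only 5 members had such a p, against 4.94%. KD-2, which nearly lacked Omp counts, and NC-1, the lowest library for most members, were also left out together. The median was then 0.73, with 23 members at such a p against 5.59% and 35 of 38 without overlap against 20.4%. With library totals in place of TMM factors the median of all genes moved to -0.14, the members' median stood 0.81 above it, and 4 members had such a p against 3.58%. With the mean level of 12 mature neuron markers as a covariate 13 had such a p against 3.14%, while blocking on replicate number left 7 against 7.22%. No member passed the adjusted threshold in any of these fits.

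The other genes of the pathway were taken from 4 lists. Of 61 further mitosis genes, 58 had a log2 fold change above 0, with a median of 0.69, and 0 passed in edgeR in either direction, 16 being higher and 0 lower at an unadjusted p under 0.05, against 8.7% and 9.25% of all tested genes. DESeq2 called 2 of them higher, against 0.819% of tested genes: Kif23, a motor of the midbody (13.1 ± 2.23 against 5.47 ± 1.47 CPM, DESeq2 adjusted p = 0.016), and Kif18b, a microtubule depolymerising motor (6.48 ± 0.382 against 2.83 ± 0.674, DESeq2 adjusted p = 0.020). Cenpa, the centromeric histone, had the next smallest p (15.1 ± 2.28 against 8.06 ± 1.78 CPM). The 3 genes of the list with the highest CPM were also the 3 below 0: Hjurp (132 ± 36.5 against 197 ± 78.7 CPM), Ncapg2 (53.9 ± 34.8 against 136 ± 91.4) and Stmn1 (44.7 ± 23.2 against 71.4 ± 6.47), a tubulin-binding protein that neurons also express. These 3 genes were lowest in KD-2, the library with few neuron counts, at 92.2, 15.5 and 18.5 CPM.

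Of 38 further replication genes 37 were tested (Fen1 was too low), 29 were above 0 with a median log2 fold change of 0.34, 0 passed, and 5 were higher and 0 lower at an unadjusted p under 0.05, against the same 8.7% and 9.25%. Mcm10, an initiation factor (7.20 ± 1.94 against 3.15 ± 1.03 CPM), Uhrf1, which carries DNA methylation through replication (26.4 ± 1.89 against 13.9 ± 5.03), and Tk1, thymidine kinase (17.6 ± 3.55 against 9.64 ± 2.76), had the smallest p. The genes with the highest CPM differed little: the methyltransferase gene Dnmt1 stood at 64.5 ± 0.821 against 55.9 ± 3.67, Rpa1 at 46.4 ± 5.83 against 48.8 ± 1.29 and Slbp at 30.1 ± 8.10 against 25.3 ± 1.43.

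In the list of G1 cyclins, their kinases and E2F factors, 17 of 22 genes were above 0 (median log2 fold change 0.50), 0 passed, and 8 were higher and 2 lower at an unadjusted p under 0.05, against 8.7% and 9.25% of tested genes, so the lower count is near the background. Ccnd2, a D-type cyclin, stood at 172, 184 and 90.7 CPM in KD and 35.8, 68.5 and 80.3 in NC. Its log2 fold change was 1.28 (SE 0.39, adjusted p = 0.28). Ccnd3 stood at 123 ± 30.6 against 74.0 ± 15.1 CPM, Cdk4, the partner of these cyclins, at 125 ± 19.8 against 92.9 ± 23.9, Myc at 22.6 ± 6.33 against 10.3 ± 3.03 and the phosphatase gene Cdc25a at 29.6 ± 4.49 against 19.5 ± 1.64. The 2 lower genes, named after their values were seen, were E2f6, a repressive E2F (33.0 ± 6.34 against 46.5 ± 4.79 CPM), and Mycn (0.888 ± 0.242 against 1.68 ± 0.381). Pocket protein, DREAM and inhibitor genes were not lower as a list: 13 of 17 were above 0 (median 0.40) and 0 passed. At an unadjusted p under 0.05, 2 were higher and 1 lower, both near the 8.7% and 9.25% of tested genes. Btg1 (294 ± 34.5 against 167 ± 47.7 CPM) and Btg2 (219 ± 63.4 against 112 ± 63.1), antiproliferative genes, and the CDK inhibitor gene Cdkn1b (112 ± 15.9 against 79.2 ± 17.1) had the highest levels, and the inhibitor gene Cdkn2c stood at 17.7 ± 1.19 against 11.3 ± 3.11. Lin52, a subunit of DREAM, stood at 14.7 ± 2.505 against 23.3 ± 3.27.

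Markers of several other cell types also had higher fitted levels in KD, although 0 markers of any list passed edgeR's adjusted threshold. The counts above 0 that follow stand against 50.6% of all tested genes. All 10 horizontal basal cell markers had a log2 fold change above 0 (median 1.22), and their summed level ran from 1012 to 1671 CPM in KD and from 281 to 790 in NC. For T cells 10 of 10 were above 0, with sums of 106 to 140 CPM in KD and 14.7 to 90.2 in NC, and for macrophages 9 of 9, with 299 to 512 against 118 to 256. For plasma cells 9 of 9 were above 0 (5160 to 9155 CPM against 1443 to 6580), for B cells 9 of 9 tested (171 to 350 against 35.3 to 222), for neutrophils and their precursors 10 of 10 (13352 to 34042 against 1427 to 9042), for erythroid precursors 8 of 9 tested (87.4 to 803 against 102 to 430) and for germinal centre B cells 6 of 8 tested (246 to 287 against 162 to 204). NC-1 had the lowest sum in the basal, T cell, B cell, plasma cell, macrophage and neutrophil lists, as it did in the members, and the part of these cells in the members' values was not tested. Respiratory ciliated markers were above 0 in 6 of 8 (693 to 788 CPM against 515 to 665).

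The lists for mature neurons, sustentacular (supporting) cells and neuronal precursors differed from these. The 12 mature neuron markers summed to 3549, 74.2 and 4423 CPM in the KD libraries by number, against 12001, 8963 and 7515 in the controls, and 8 of 9 sustentacular markers were below 0 (4436 to 7883 CPM against 8203 to 9851). Of 10 tested globose basal and neuronal precursor markers 4 were above 0 and 6 below (216 to 265 CPM against 217 to 231), with a median log2 fold change of -0.42. The list's median log2 CPM minus the NC mean was -0.31, -1.23 and 0.05 in the KD libraries by number, so the sums do not show the typical marker. Among those above 0, Kit stood at 37.6 ± 12.4 against 24.0 ± 6.53 CPM and Sox2 at 114 ± 14.7 against 87.4 ± 13.2, both without overlap, and both were highest in KD-2. Among those below 0, Neurog1, a factor of neuronal precursors, had 10, 1 and 34 counts in KD and 44, 37 and 32 in NC. In KD-2 Neurod1 and Elavl2 had 0 counts, which allows up to 3 counts or 0.23 CPM. That library had 682 CPM of member genes in sum, against 887 and 687 in the other KD libraries and 348, 509 and 529 in NC.

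**Figure D4:**
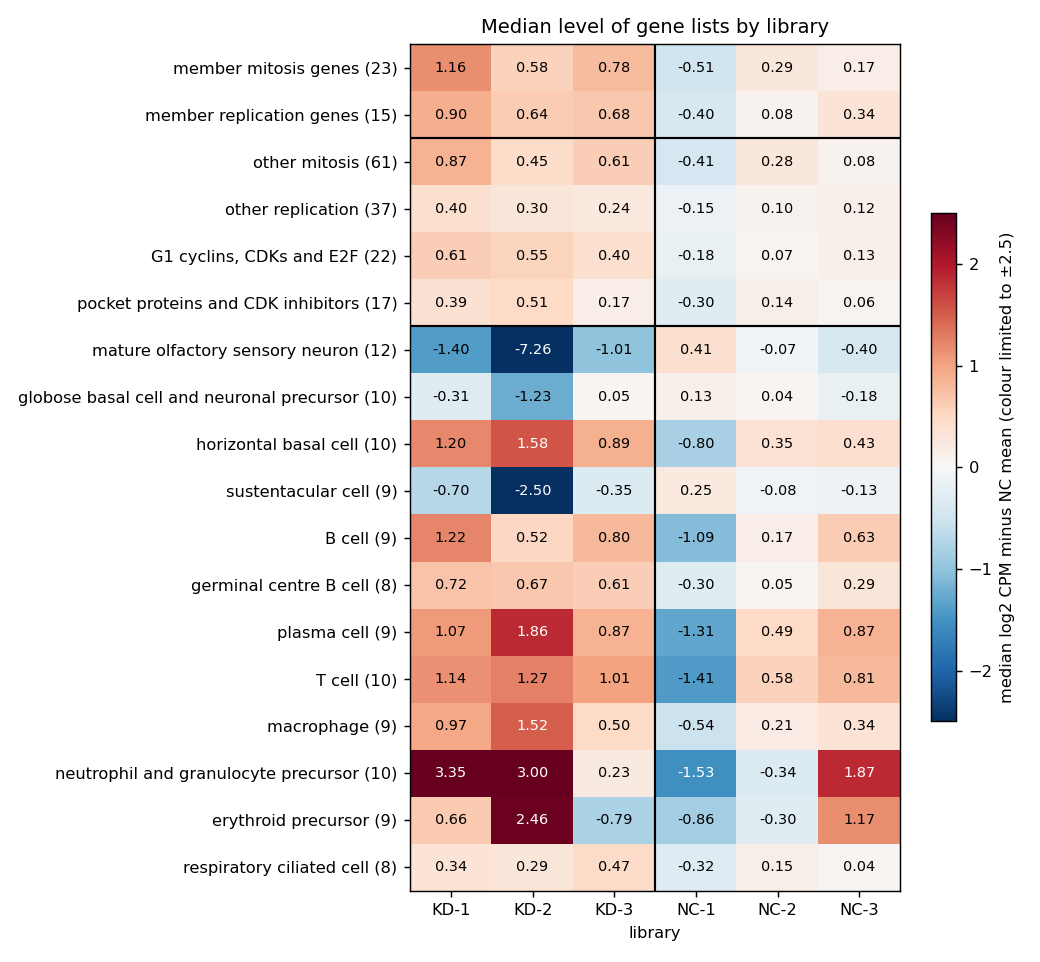
Each cell gives, for 1 list (tested genes in brackets) and 1 library, the median log2 CPM of the list's genes minus their NC mean, with colour limited to 2.5 in either direction and the value printed in each cell. The members (top) are lowest in NC-1, as are the horizontal basal and most immune lists, while the mature neuron and globose basal lists are lowest in KD-2.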

How the data were processed

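Poly(A) RNA-seq libraries (3 KD, 3 NC) were grouped by sample title. The authors deposited 1 table with raw counts per gene and library, and with their own mean of counts over size factors (a signal column, not used), log2 fold change and unadjusted p-value, per the file headers. Tools listed in the submitters' processing notes, with no role or order, are HTSeq 0.6.0, HISAT2 2.1.0, Bowtie2 2.2.3, TopHat2, DESeq and DESeq2, and the build is GRCm38. For strand and for reads in shared bases, the counting setting is not given in these sources. So 11 members that share exon bases with a gene on the opposite strand (such as Cdc20 with Elovl1) may have gained or lost reads there.

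Counts were tested with edgeR 4.0.16 (R 4.3.3): TMM factors, its default low count filter, quasi-likelihood F test, two-sided, no covariate, Benjamini-Hochberg over 18444 genes, threshold 0.05. SEs come from the fold change and F. CPM use TMM-normalised totals, and list medians log2(CPM + 0.5). Alternatives were RLE factors, totals, no filter, DESeq2 1.42.0, limma-voom (limma 3.58.1), a replicate block, each library left out, KD-2 and NC-1 left out, and a neuron covariate. Total counts of 15704791 to 17618540 a library bound the precision of low genes. Scripts were tested on simulated data. Positions and exon lengths are from GENCODE M21. The members and lists were chosen with earlier results of these data known. Every member is named; of each pathway list the 3 genes with the highest mean CPM and up to 3 with the smallest p are named. One marker gene is not reported here.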

Additional observations from a re-analysis of the deposited data

How the results depend on the processing

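The 38 members kept a log2 fold change above 0 in every alternative run, apart from Ccne2 without KD-1 (-0.0023; up to 0.43 without KD-3), and 0 members passed the adjusted threshold in any. Over all genes, DESeq2 called 347 and edgeR without both KD-2 and NC-1 called 3, against 0 in the edgeR fit of all 6 libraries (3310 at an unadjusted p under 0.05). Leaving out 1 library at a time gave medians of 0.65 to 1.03 for the mitosis genes and 0.59 to 0.998 for the replication genes, 0 calls over all genes and 0 among the members. With the replicate block the medians were 0.90 and 0.80, and 7 members in place of 19 had an unadjusted p under 0.05. Library numbers were not taken as pairs: the correlations of same-numbered libraries' deviations were 0.32, 0.11 and -0.26, and KD-2 and KD-3 each correlated better with another number. Ttk, Gins2 and Cdc6, with few counts, carried larger SEs (0.58, 0.56 and 0.51) than Pcna and Mcm7 (0.15 and 0.15), with many. SEs did not follow counts throughout: Kif20a, with 60 to 129 counts, had 0.25, and Cdk1, with 45 to 354, had 0.53.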

Other observations

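The balance between the mitosis and the replication genes differed between libraries without following the groups. Summed CPM of the 23 mitosis genes over that of the 15 replication genes was 0.99, 0.87 and 1.04 in the KD libraries by number, against 0.63, 0.96 and 0.80 in the controls, so NC-2 lay above KD-2.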
